A study of Caenorhabditis elegans with 2 samples.

Results

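The 10 genes described here encode cuticle collagens whose mutants change the shape of the worm: dpy-2, dpy-3, dpy-7, dpy-8, dpy-9, dpy-10, rol-6, sqt-1, sqt-3 and bli-1. They were chosen by name, by a rule that uses no peak value, though with earlier results of these data known. All 10 were found among the 19973 protein-coding genes of the Ensembl annotation of WBcel235. The data are ChIP-seq peak lists for AMA-1, the largest subunit of RNA polymerase II, from whole Caenorhabditis elegans of the wild-type strain N2 at the young adult stage, with sexes mixed. There was 1 group, with no treatment given in the labels and 2 biological replicates, so no condition could be compared. The lists read, all on genome build ce11, were those of replicate 1 (27847 peaks), replicate 2 (cut here from 30000 to its strongest 27847), the list from pooled reads (30000) and the authors' final optimal list of the irreproducible discovery rate procedure (1103).

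The worm cuticle is a collagen exoskeleton secreted by the epidermis and made anew at each moult, and its collagen genes are transcribed in bursts tied to the moulting cycle. The furrow collagens, dpy-2, dpy-3, dpy-7, dpy-8, dpy-9 and dpy-10, are needed for the circular furrows that ring the body, and their loss gives short, dumpy animals. Mutations in rol-6 and sqt-1 can twist the body so that animals roll, sqt-3 mutants can be dumpy or roll, and bli-1 encodes a collagen of the struts of the adult cuticle, whose loss leaves fluid-filled blisters.

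Because a summit can be placed only relative to an annotated start, the letters before that start are shown first. Many worm messages are trans-spliced, and the annotated 5' end is then often the splice site, directly after AG, while transcription starts farther upstream. The 30 bases before each annotated start, read 5' to 3' on the gene's strand from the RefSeq genome of WBcel235, with a closing AG in capitals, are:
dpy-2: aaaattaaacctcaaatatgaaactttcAG
dpy-3: ttattttgaaagtttataattatgttatAG
dpy-7: ttttaagaatattcttacattttgttccAG
dpy-8: cttataagtatccggatggaatgcagcttc
dpy-9: atttcttgttttcaatacttattattgcAG
dpy-10: actaacttctaattctttataatatttcAG
rol-6: atatctttagatctaactgaaaatttccAG
sqt-1: cctaataaaaggagacgaatccggtaggaa
sqt-3: aacttaccagttttccagtctttccagtac
bli-1: tcaatcagtactcattctccgcttcttcAG
The annotated start directly followed AG in 7 of the 10 genes, against 27.6% of all protein-coding genes. Among the 156 collagen genes named col- and a number, it did so in 22 (14.1%). The 7 were dpy-2, dpy-3, dpy-7, dpy-9, dpy-10, rol-6 and bli-1, so the distance of a summit from the start of transcription is not known there. The letters alone do not show that a gene is trans-spliced.

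No body-shape collagen held a summit in the optimal list, while every one did in the pooled list and in replicate 2, and bli-1 was the single gene with a summit in replicate 1. A summit was counted for a gene when it fell in the gene body or in the 500 bp on either side of it. In the optimal list 0 of 10 did, where 4.40% of protein-coding genes did, so a count of 0 among 10 genes lies near that share. In the pooled list 10 of 10 did, against 40.4% of protein-coding genes. In replicate 1 the count was 1 of 10, against 47.4% of protein-coding genes, and in replicate 2 it was 10 of 10, against 37.5%. Peaks are described here by the rank of the authors' signal value within a list, with 1 the strongest. The replicate lists stood apart at genes of some other tissues too: 7 of 7 germline and oocyte genes held a summit in replicate 1 and 2 of 7 in replicate 2. Intestine genes stood at 3 of 5 and 0 of 5. Body wall muscle genes, at 5 of 5 and 4 of 5, and neuronal genes, at 4 of 5 in each, were more alike. Both samples are labelled young adult, and whether the animals matched in stage within adulthood or in tissue content was not tested, which bears on any contrast of the replicates at genes tied to the moult. The number of reads behind the lists is unknown, and no test was made on these counts. In whole animals, fewer cells of a type and less polymerase per cell cannot be told apart.

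**Figure D1:**
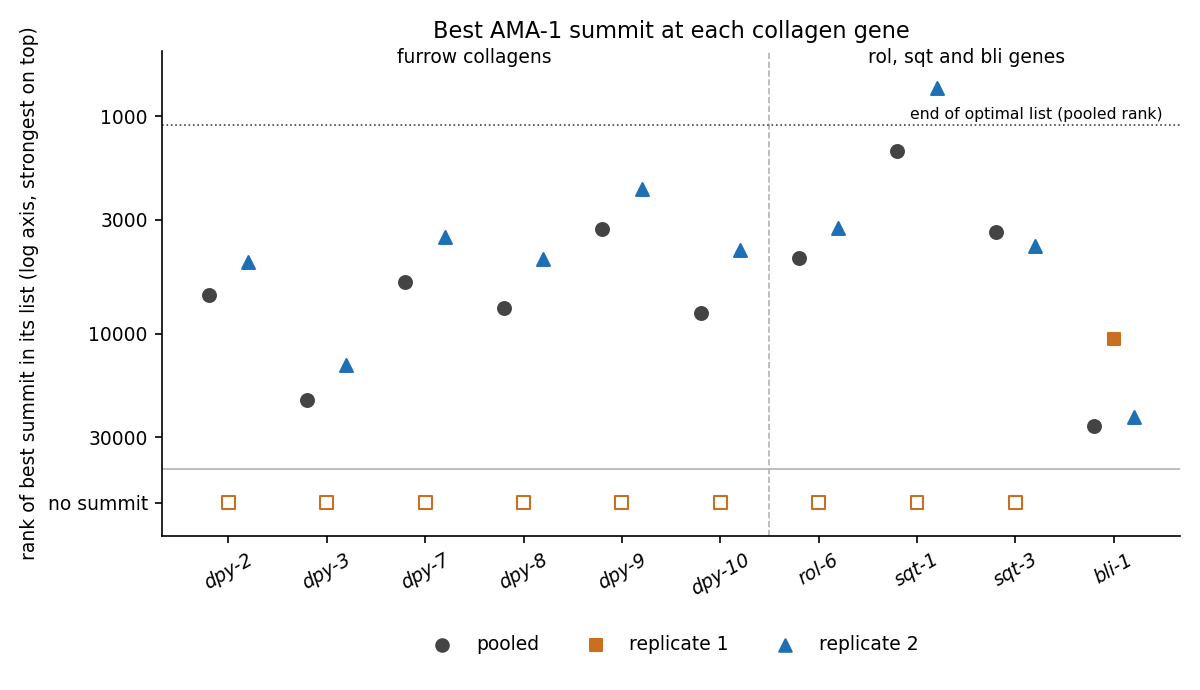
Rank of the best summit at each gene in the pooled list (circles), replicate 1 (squares) and replicate 2 (triangles), on a log axis with the strongest peaks on top; open squares below the line mark genes with no summit in replicate 1, and the dotted line is the end of the optimal list. All 10 genes have a triangle, between ranks 740 and 24213, and bli-1 alone has a filled square, at rank 10624.

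Among the furrow collagens, dpy-9 had the strongest peak. Its best summit ranked 3308 in the pooled list and 2161 in replicate 2, and no replicate 1 summit lay within 1216 bp of the gene. This summit (chrIV:257169-257504, summit at 257337, ce11) lay 66 bp past the annotated 3' end of dpy-9, which runs on the minus strand from 257403 to 259204. It was also 134 bp upstream of the next gene, R02D3.8, so its gene is ambiguous. The strongest dpy-9 summit that no other protein-coding gene shared lay in an intron and ranked 7731 in the pooled list.

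The gene dpy-7, whose promoter is widely used to drive transgenes in the epidermis, had its best summit in coding sequence. That summit was 411 bp from the annotated start at rank 5793 in the pooled list, and 426 bp from it at rank 3590 in replicate 2. The start of dpy-7 (X, minus strand, 7536467 to 7537792) is 16 bp past the annotated 3' end of glb-16, a globin gene on the same strand, whose 500 bp downstream window holds this summit too. Without it the best pooled rank of dpy-7 was 16213.

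The neighbours dpy-10 and dpy-2 lie head to head on chromosome II, 2064 bp apart. At dpy-2 (plus strand, 6714292 to 6715971) the best pooled summit ranked 6653 and lay at position -299 relative to the start, 32 bp before a non-coding RNA gene, T14B4.13. In replicate 2 it ranked 4708 and lay at position -291. At dpy-10 (minus strand, 6710149 to 6712227), whose mutations often serve as a visible marker in genome editing, the best summit was 265 bp past the 3' end in both lists. It ranked 8010 in the pooled list and 4138 in replicate 2. Weaker summits within dpy-10 and upstream of it also fell in the window of T14B4.19, a protein-coding gene that overlaps dpy-10 on the same strand. The nearest replicate 1 summits were 6294 bp from dpy-10 and 4671 bp from dpy-2.

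The other furrow collagens, dpy-8 and dpy-3, lie on X, as does dpy-7. At dpy-8 (minus strand, 5148804 to 5150476) the best summit fell in an intron, 200 bp from the start, at rank 7637 in the pooled list and 4564 in replicate 2. Its summits near the 3' end also fell in the window of C31H2.14, a gene on the opposite strand. The nearest replicate 1 summits were 3265 bp from dpy-8, 3903 bp from dpy-3 and 4731 bp from dpy-7. At dpy-3 (minus strand, 2144605 to 2145647) the peaks were the weakest of the 6, with a best rank of 20138 in the pooled list and 13995 in replicate 2. These were different summits, at position -254 in the pooled list and 116 bp past the 3' end in replicate 2. The −log10 (q-value) of the best dpy-3 peak was 1.11 in the pooled list, against 4.05 at dpy-9, the highest value that list holds. The pooled list contains background as well as peaks, so a summit of this strength may lie in background.

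Of the remaining genes, sqt-1 had the strongest peak of all 10. Its best summit ranked 1441 in the pooled list and 740 in replicate 2, at the same base in both (chrII:11337504-11337839 in the pooled list, summit at 11337672), in coding sequence 165 bp from the start. The gene runs on the minus strand from 11336693 to 11337837, no other gene shares the summit, and the nearest replicate 1 summit lay 2595 bp away. The pooled peak had a signal value of 36.3, against 40.5 for the weakest peak of the optimal list, so it fell just short of that list. The 101 bases centred on this summit (chrII:11337622-11337722, minus strand), shown because it is the strongest peak of the set and lies in coding sequence, with the summit base in capitals, read:
sqt-1: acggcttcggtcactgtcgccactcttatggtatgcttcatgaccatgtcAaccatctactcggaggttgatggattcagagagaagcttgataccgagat

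The genes rol-6, a dominant allele of which is a common transgenic marker, and sqt-3 also had peaks at the highest −log10 (q-value) of the pooled list, 4.05. At rol-6 (chromosome II, plus strand, 8733050 to 8734239) the best summit ranked 4475 in the pooled list, 27 bp from the start, and 3267 in replicate 2, 142 bp from it. These summits also lay 234 and 349 bp upstream of T01B7.11, a non-coding RNA gene on the opposite strand. At sqt-3 (chromosome V, plus strand, 12352745 to 12354320) the best summit ranked 3420 in the pooled list and 3967 in replicate 2, in both cases in the 3' UTR. Neither gene had a replicate 1 summit in its window, and the nearest lay 5269 bp from rol-6 and 669 bp from sqt-3.

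The pattern at bli-1 ran the other way. Its best summit ranked 10624 in replicate 1 and 24213 in replicate 2, and 26622 in the pooled list, where the −log10 (q-value) of the peak was 0.757. The replicate 1 summits lay 1954 and 1163 bp from the start, both in coding sequence, and the replicate 2 summit 974 bp from it. The gene (chromosome II, plus strand, 10708960 to 10712156) lies wholly within dph-2, which is on the opposite strand from 10702510 to 10714297, so no bli-1 summit can be given to bli-1 alone. The 101 bases centred on the best replicate 1 summit (chrII:10710864-10710964, plus strand), shown because it is the strongest replicate 1 peak at any of the 10 genes, with the summit base in capitals, read:
bli-1: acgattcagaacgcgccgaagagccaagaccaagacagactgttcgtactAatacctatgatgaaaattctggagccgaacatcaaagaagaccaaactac

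Replicates 1 and 2 thus gave different pictures of these genes. A summit in replicate 2 with none in replicate 1 was found at 9 of the 10, against 5.83% of all protein-coding genes and 5.84% of the 10130 protein-coding genes whose length lies in the range of the 10, 1043 to 3197 bp. The reverse, a summit in replicate 1 with none in replicate 2, was found at 0 of 10, against 15.7% of protein-coding genes. The 3 members on X all had a replicate 2 summit only, against 11.5% of X genes, and so did 6 of the 7 on autosomes, against 4.94% of autosomal genes. With only the gene body counted, or only the body and 500 bp upstream, the count was 9 of 10 as well. With 1000 bp on each side it was 8, since sqt-3 then also had a replicate 1 summit.

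These differences were not limited to weak peaks. In 8 of the 10 genes the best replicate 2 summit was among the strongest 5000 peaks, and none of those 8 had a replicate 1 summit of any rank. Over all protein-coding genes, 5.76% of the 2918 with a replicate 2 summit of that strength lacked one in replicate 1. The threshold of 5000 was chosen after the values were seen. Among the strongest 10000 peaks of each replicate, 0 of 10 genes held a summit in replicate 1 and 8 of 10 in replicate 2, while 27.0% and 23.2% of protein-coding genes did. A region missing from a list may still hold polymerase at a level below the weakest listed peak.

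**Figure D2:**
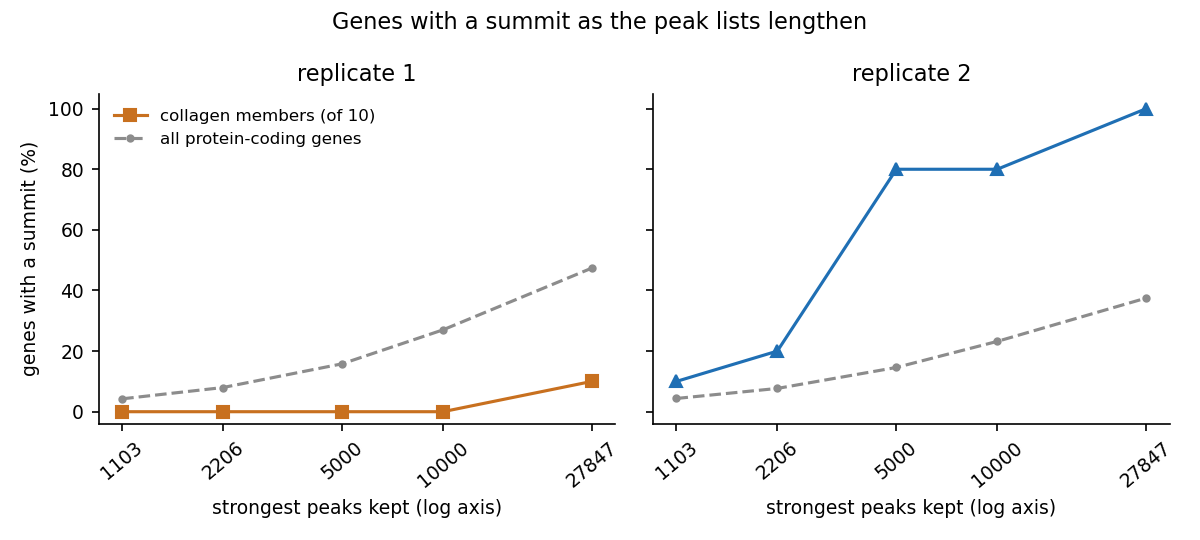
Share of genes with a summit (percent) when each replicate list is cut to its strongest peaks (log axis), for the 10 collagen genes (coloured) and all protein-coding genes (grey, dashed). In replicate 1 the collagen line stays at 0 up to 10000 peaks and ends at 1 of 10, below the grey line; in replicate 2 it lies above the grey line at every cut and ends at 10 of 10.

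The pooled peaks at these genes mostly lay near those of replicate 2. Of 27 pooled summits in the 10 windows, 24 had a replicate 2 summit of the same gene within 100 bp, and 0 had a replicate 1 summit within 100 bp. These shares were not computed over all pooled summits, so whether the match is particular to these genes is not known. The 0 adds little to the counts above: bli-1 alone had replicate 1 summits in its window, so no other gene could give a match. At bli-1 the pooled summit lay at 10709931, where replicate 2 had its summit at 10709934 and replicate 1 its nearer summit at 10710123. The pooled list was made from the reads of both replicates, so it is no independent check of either.

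Summits were spread along the annotated genes and past their 3' ends. Of the 27 pooled summits, 15 lay in coding sequence, 2 in introns, 1 in a 3' UTR, 7 in the 500 bp past the 3' end and 2 in the 500 bp upstream. Thus 66.7% (95% Wilson interval 47.8 to 81.4, counting error only) lay inside the annotated gene. The gene makes up more of each window than the flanks do, so summits placed evenly would also lie mostly inside. No such share was computed over all protein-coding genes. Of the 34 replicate 2 summits, 14 lay in coding sequence, 5 in introns, 1 in a 3' UTR, 9 downstream and 5 upstream. The summit is the middle base of 98.4% of pooled peaks (within 1 bp), and the median peak is 336 bp wide, so these positions are coarse against genes of this length. Summits of 1 gene share a library and can lie within 1 stretch of bound polymerase, so they are not independent of each other.

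**Figure D3:**
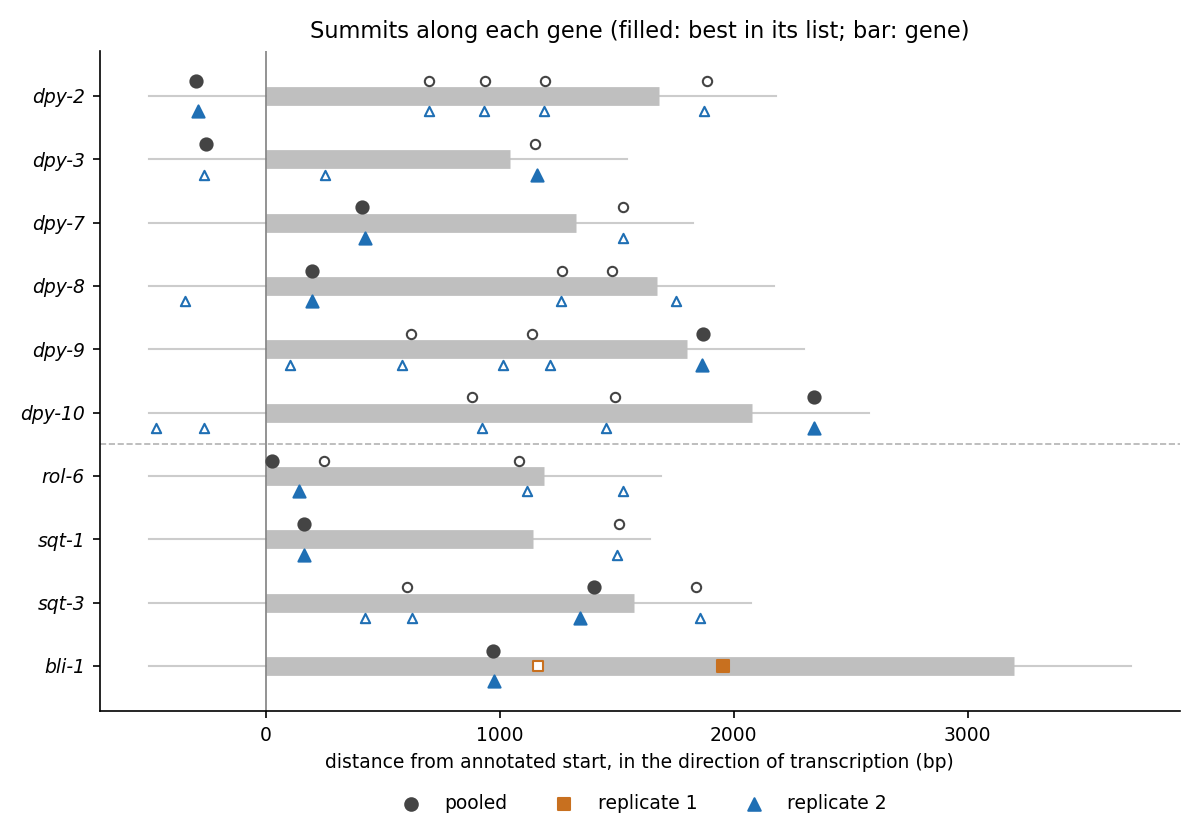
Distance of each summit from the annotated start, in bp along the direction of transcription, for every gene (grey bar: the gene; thin line: 500 bp on each side), with pooled summits as circles, replicate 1 as squares and replicate 2 as triangles, and the best of each list filled. The best pooled summit lies past the 3' end at dpy-9 and dpy-10 and upstream at dpy-2 and dpy-3, and squares appear at bli-1 only.

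The furrow collagens ranked somewhat lower than the remaining genes, but the groups overlapped widely. Their best pooled ranks ran from 3308 to 20138 with a median of 7145, against 1441 to 26622 with a median of 3947.5 for rol-6, sqt-1, sqt-3 and bli-1. In replicate 2 the medians were 4351 for the furrow collagens and 3617 for the other 4. Over the 8078 protein-coding genes with a pooled summit, the median of the best rank was 7371. The number of pooled summits per kb of window was alike, with medians of 1.02 for the furrow collagens and 1.05 for the others. The lowest pooled values of all were at bli-1 (0.238 per kb) and the highest at dpy-2 (1.87). In replicate 2 the median per kb was higher for the furrow collagens, 1.56 against 1.15 for the others. In replicate 1 a summit was held by 0 of 6 furrow collagens and by 1 of the other 4. The best pooled summit was outside the gene at 4 of 6 furrow collagens, past the 3' end in 2 and upstream in 2, and inside it at all 4 of the others. The dpy-9 summit is shared with R02D3.8 and the bli-1 summit with dph-2, so neither can be given to its collagen alone. This share was not computed over all protein-coding genes. The difference between the classes was not tested, since the genes share the same libraries and are not replicates.

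Other collagens of the cuticle are set beside the same shares of all protein-coding genes, with no test of the difference. Of 9 further body-shape and blister collagens (dpy-4, dpy-5, dpy-13, dpy-14, dpy-17, lon-3, rol-8, bli-2 and bli-6), 4 held a summit in replicate 1 (47.4% of protein-coding genes did) and 8 in replicate 2 (37.5%). Of the 9, 5 held one in replicate 2 only, against 5.83% of protein-coding genes, and 1 in replicate 1 only, against 15.7%. The strongest, dpy-13, was in the optimal list, ranked 834 in the pooled list and 479 in replicate 2, and had no summit in replicate 1. The gene dpy-14 was without a pooled or replicate 2 summit, and ranked 15137 in replicate 1. The numbered cuticle collagens were taken by symbol alone, as every gene named col- and a number, with no check that each product is in the cuticle. Of these 156, 60 (38.5%) held a summit in replicate 1, against 47.4% of protein-coding genes, and 60 (38.5%) in replicate 2, against 37.5%. A summit in replicate 1 only was held by 27 of the 156, against 15.7% of protein-coding genes, and one in replicate 2 only by 27, against 5.83%. The strongest of these, col-103, ranked 94 in the pooled list, 498 in replicate 1 and 77 in replicate 2, and col-2 was the first by number with no pooled summit.

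Among 11 genes of collagen processing and cross-linking, 10 held a summit in replicate 1 (47.4% of protein-coding genes did), 8 in replicate 2 (37.5%) and 4 in the optimal list (4.40%). Of the 11, 7 held one in both replicates, where 6331 of the 19973 protein-coding genes did. Another 3 held one in replicate 1 only (15.7% of protein-coding genes did) and 1 in replicate 2 only (5.83%), the last near its share. The 11 were led by dpy-11, a thioredoxin-like protein of the epidermis, which ranked 26 in the pooled list, 170 in replicate 1 and 21 in replicate 2. The gene let-268, a lysyl hydroxylase, had no pooled summit. Of 6 transcription factors of the epidermis and the moult, 3 held a summit in replicate 1, against 47.4% of protein-coding genes, and 6 in replicate 2, against 37.5%. The strongest, the GATA factor elt-3, ranked 719 in the pooled list, 6168 in replicate 1 and 481 in replicate 2.

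Markers of other tissues are read against the same shares of protein-coding genes, 47.4% with a summit in replicate 1 and 37.5% in replicate 2. Of 7 germline and oocyte genes, 7 held a summit in replicate 1, with best ranks from 1707 to 9190, and 2 did in replicate 2, ranked 6322 and 11542. Of 5 intestine genes, 3 held one in replicate 1 and 0 in replicate 2, with the yolk protein gene vit-6 at rank 153 in replicate 1 and elt-2 and ges-1 without a summit in either. Body wall muscle genes held one in 5 of 5 in replicate 1 and 4 of 5 in replicate 2, and neuronal genes in 4 of 5 in each. The germline count lay above the share of all genes in replicate 1 and near it in replicate 2. The part of these tissue differences in the collagen result was not tested.

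**Figure D4:**
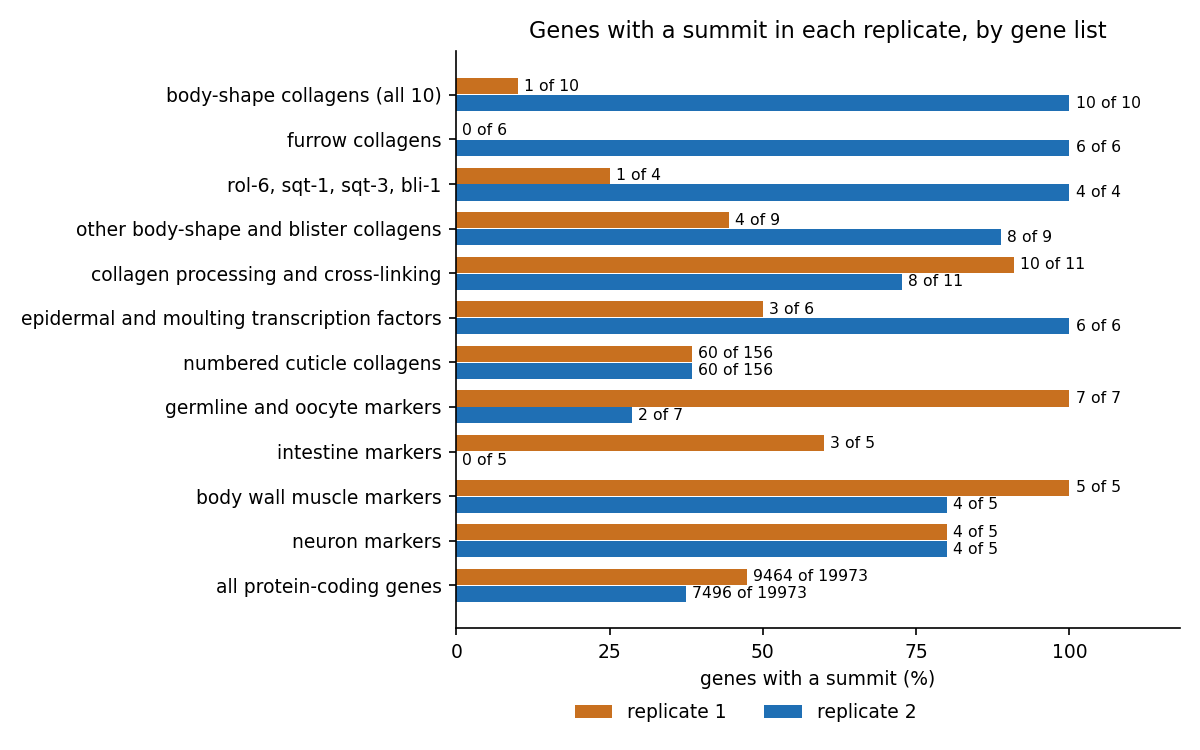
Share of genes with a summit (percent) in replicate 1 (upper bar of each pair) and replicate 2 (lower bar), by gene list, with the counts beside the bars. The furrow collagens stand at 0 of 6 in replicate 1 and 6 of 6 in replicate 2, while the germline and oocyte markers stand at 7 of 7 and 2 of 7.

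Upstream letters were searched for 8 short motifs, on either strand, in the 250 bases before each annotated start. Counts lay above the share over all protein-coding genes for GATAA (8 of 10, against 52.2%), TATAAA (6, against 35.2%), GATAAG (5, against 14.7%), GGTCA (5, against 20.8%) and GAGAGA (3, against 19.1%). None of these differences was tested, and the GAGAGA count lies near its share. TTTCAG was found at 3 (against 42.6%), GAGAG at 3 (against 34.5%) and CACGTG at 0 (against 4.94%). GATAA lies within GATAAG and GAGAG within GAGAGA, so these counts overlap. GATAAG is shown further because GATA factors, elt-1 and elt-3 among them, act in the worm epidermis, and it was picked from the 8 after their counts were seen, so its count is a description. GATAAG occurred in the 250 bases before the annotated start of 5 of the 10 genes, 3 of the 6 furrow collagens and 2 of the other 4. It occurred there in 29 of the 156 numbered cuticle collagens (18.6%). On the gene's own strand alone, 2 of 10 genes had the letters, against 6.13%. Each match is shown with up to 12 bases on each side, read on the gene's strand, with GATAAG or its reverse complement CTTATC in capitals:
dpy-8, chrX:5150606-5150635 (minus strand): tcgcggtcgcgcGATAAGgaaaaaccgaaa
dpy-8, chrX:5150524-5150553 (minus strand): gcctaatcgcgcCTTATCgagttttaccca
dpy-9, chrIV:259336-259365 (minus strand): taccttcttcccCTTATCaatcacctaaat
dpy-10, chrII:6712413-6712442 (minus strand): gtctctaggtttCTTATCggtatccgaggg
dpy-10, chrII:6712318-6712347 (minus strand): acgttttctctgGATAAGgatagatgaaag
sqt-1, chrII:11337959-11337988 (minus strand): acatccgtactcCTTATCtcccgttcttat
sqt-1, chrII:11337946-11337975 (minus strand): ttatctcccgttCTTATCcagtcttttatc
sqt-3, chrV:12352665-12352694 (plus strand): aattttgtaaaaCTTATCtgaacgttaaaa
The sites at dpy-8, dpy-10 and sqt-1 come in pairs within the 250 bases. A match does not show that a factor is bound, and a missing match shows no more than that these letters are absent from the 250 bases.

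Outside the 10 genes, the genes whose best ranks were most like those of sqt-1 were col-10 and the pair Y39A1A.10 and Y39A1A.9. Likeness was the Euclidean distance between log2 ranks over the pooled, replicate 1 and replicate 2 lists, with a missing summit set just past the end of its list. The distance was 0.112 for col-10, another cuticle collagen, which ranked 1341 in the pooled list and 719 in replicate 2 and had no summit in replicate 1. It was 0.172 for Y39A1A.10 and Y39A1A.9, which share 1 summit ranked 1304 in the pooled list and 790 in replicate 2.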

How the data were processed

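AMA-1 ChIP-seq was analysed in 2 biological replicates of whole young adult N2 worms, with replicate numbers from the labels. According to the deposited README texts, a replicate's list came from its own alignment and a control, the pooled list drew on both replicates, and the optimal list was built from those 3. Which aligner and caller were used is not given in the sources used here. The deposited signal value is a score of unknown scale from the authors' caller and gave the ranks. Significance was deposited by the authors as −log10 (q-value), with no plain p-value. The other deposited column used, the summit offset, counts bases from the peak start and gave the summit. Every optimal peak was also a pooled peak, ranked within the top 1103. Lists of the same data on ce10 were not used here.

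Summits on ce11 were placed on genes of Ensembl release 115 (WBcel235, the same coordinates; all peaks ended within its chromosomes), and positions are 1-based. Both replicate lists were cut to 27847 peaks. The labels and files give no read totals, so the depth per sample is unknown. The counting of summits in gene windows recovered 200 of 200 planted genes in simulated data. Each planted summit lay inside its gene's window, so this checks the counting step only and not the peak lists. No test was made: counts and medians stand beside those of all protein-coding genes. The genes named were the 10 members, protein-coding neighbours whose windows share a summit, and non-coding T14B4.13 and T01B7.11 (named after their values were seen). Also named were the strongest gene and the first without a pooled summit in each collagen and cuticle list, and the 3 genes most like sqt-1. Tissue markers named singly, and nhr-23, nhr-25, dpy-4, rol-8 and lin-29 in the closing section, were picked after their values were seen. Members and lists were chosen with earlier results of these data known. Alternatives were other windows, peak overlap, other list lengths, each replicate alone, single intervals and unshared summits. Protein length and identity, planned as features, were not analysed here. Upstream, 8 short motifs were searched, and GATAAG was picked from them after their counts were seen. Software was Python 3.11.15, numpy 2.4.6, pandas 2.3.3 and matplotlib 3.10.9.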

Additional observations from a re-analysis of the deposited data

How the results depend on the processing

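The count of genes with a pooled summit, 10 of 10, was 9 with gene bodies alone and 10 with the other windows, with peak overlap and with intervals counted once. With each replicate left out in turn it ranged from 1 to 10. The optimal count of 0 held with every window, peak overlap, single intervals and the stronger part of the list. It was 1 with 2206 pooled peaks, 4 with the pooled peaks that share the top −log10 (q-value), and from 0 to 1 with a replicate left out and the other cut to 1103 peaks. The number of genes with a summit in replicate 2 only was 9 with whole lists, and 1 when both lists were cut to 1103 peaks, too few to reach most of these genes. The median log2 rank of the furrow collagens was 0.87 above that of the other genes in the pooled list, that is, weaker. It was 0.98 above with gene bodies alone, 1.34 with 1000 bp on each side, 0.97 with the body and 500 bp upstream, 1.20 without summits shared with another protein-coding gene and 1.06 without bli-1, an alternative chosen after seeing the data. It was 0.27 without replicate 1 and could not be computed without replicate 2, where no furrow collagen had a summit. By pooled summits per kb the furrow collagens differed little, by -0.0237 as furrow minus other. In replicate 2 their median per kb was higher, 1.56 against 1.15. The share of summits inside the gene was 100% in replicate 1, which had 2 summits, both at bli-1, and 58.8% in replicate 2. GATAAG on the gene's strand alone, also chosen after seeing the data, was found at 2 genes in place of 5. The cause of these changes was not tested. No paired analysis was possible because there was 1 group. Depth is unknown, so a summit missing from replicate 1 cannot be read as absent polymerase.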

Other observations

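Over all protein-coding genes, 168 of the 2918 with a replicate 2 summit among the strongest 5000 peaks had none in replicate 1 (5.76%). Of these 168, 8 were among the 10 body-shape collagens. Another 10 were numbered cuticle collagens, out of 21 numbered cuticle collagens with a replicate 2 summit of that strength. The threshold of 5000 was chosen after the values were seen, and no test was made on these counts. The epidermis genes named next, from the lists outside the 10, were picked after their values were seen, and the lists were mixed. Of the 6 transcription factors, 3 held a summit in replicate 2 only and 3 in both replicates. Of the 9 further body-shape and blister collagens, 5 held one in replicate 2 only, 3 in both and 1 in replicate 1 only. Over all protein-coding genes, 5.83% held one in replicate 2 only and 15.7% in replicate 1 only. The nuclear receptor genes nhr-23 and nhr-25, which act in moulting, ranked 2359 and 3822 in replicate 2 with no summit in replicate 1. The collagens dpy-4 and rol-8 ranked 1806 and 2159 in replicate 2, again with none in replicate 1. In contrast, the heterochronic gene lin-29, which acts in the last switch of the epidermis to its adult form, ranked 523 in replicate 1 and 7629 in replicate 2.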
